A study of Homo sapiens with 6 samples.

Results

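The nuclear genes for subunits of the oxidative phosphorylation system were followed in A549 cells with and without overexpression of SNHG5. A549 is a human lung adenocarcinoma cell line. SNHG5 is a long non-coding RNA whose introns hold small nucleolar RNAs. Members were the protein-coding rows whose symbols begin with the stems used for subunits of complexes I to IV and ATP synthase (NDUFA, NDUFB, NDUFC, NDUFS, NDUFV, SDHA to SDHD, UQCR, COX4 to COX8 and ATP5), with the assembly factors that share a stem left out. The rule gave 90 of 58302 gene rows: 40 in complex I, 4 in complex II, 9 in complex III, 17 in complex IV and 20 in ATP synthase. It rests on names, so NDUFA4, known today as a complex IV subunit, stands with complex I, cytochrome c1 (CYC1) lies outside, and 2 read-through rows, NDUFC2-KCTD14 and ATP5MF-PTCD1, lie inside.

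The study holds 3 libraries of cells transfected with SNHG5 and 3 of cells transfected with vector, named as biological replicates of this 1 line at passages 6 to 8, grown in RPMI 1640 with 10% serum at 5% CO2. No untransfected cells were analysed here, and the labels do not say whether the transfection was stable. SNHG5 stood at 153, 127 and 62.9 CPM, a gene's count divided by its library's TMM-scaled total and put on a common scale, in overexpression 1, 2 and 3 and at 61.0, 101 and 55.1 CPM in control 1, 2 and 3. The overexpression library was the higher of each same-numbered pair, but the ranges overlapped, as overexpression 3 lay below control 2. Every direction below is therefore between libraries as labelled. The log2 fold change was 0.66 (standard error 0.37, edgeR adjusted p = 0.746). An exact two-sided permutation test gave p = 0.2, where 0.1 is the smallest p that 3 libraries against 3 allow. Library totals ran from 13378079 to 16999604 counts. Of the 10 A549 and epithelial markers, all were detected in each library, from EPCAM at 2.27 to 4.19 CPM up to ALDH1A1 at 3757 to 5186 CPM. Of 9 markers of leukocytes, endothelium, fibroblasts and liver, PTPRC, CD3E and LYZ were at 0 throughout and COL1A1 alone passed 1 CPM (1.88 to 16.4 CPM); their summed level was 2.06 to 16.9 CPM in overexpression and 6.95 to 14.5 CPM in control libraries.

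Oxidative phosphorylation passes electrons from NADH and succinate through complexes I and II to ubiquinone, then through complex III and cytochrome c to complex IV, where oxygen is reduced. Complexes I, III and IV pump protons across the inner mitochondrial membrane, and ATP synthase uses the gradient to make ATP. Most subunits are encoded in the nucleus and imported, while a few central subunits of every complex except complex II are encoded in mitochondrial DNA. The transcription factors NRF1, GABP (an ETS factor, also called NRF2) and YY1 are known to bind many promoters of the nuclear set.

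To show which such words the members' promoters share, the windows from 250 bases before to 50 bases after the RefSeq start site (GRCh38.p14) were searched on both strands. Windows were found for 73 of the 90 members, 4 of them under a newer symbol. The NRF1 core word GCATGCGC stood in the window of 14 members, 19.2%, and in 3.68% of the windows of all 27305 genes in the table. The ETS word CCGGAAGT stood in 12 members (16.4%, against 4.95% of all), and the YY1 word AAGATGGC in 12 members (16.4%, against 3.52% of all). No word contains another, and the NRF1 word can overlap its own reverse complement, as it does in SDHD. At least 1 of the 3 was present for 31 members, 42.5%, against 11.2% of all genes. The set of all genes was not limited to protein-coding or expressed genes, so it is unlike the members in kind. A gene counted when any of its windows held the word. A match is a stretch of letters and not a shown binding site. One member of each complex with a word is printed here, chosen for its words or its place in the results, as the 250 bases before the first start site listed for that gene, with the words in capitals on whichever strand they lie.
NDUFS1, chr2:206159445-206159694, minus strand, ETS word: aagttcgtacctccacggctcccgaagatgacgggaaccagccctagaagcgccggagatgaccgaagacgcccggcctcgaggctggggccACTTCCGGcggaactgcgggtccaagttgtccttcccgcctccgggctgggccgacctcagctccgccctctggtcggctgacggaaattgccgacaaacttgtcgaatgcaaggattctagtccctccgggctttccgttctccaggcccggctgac
SDHD, chr11:112086623-112086872, plus strand, NRF1 word on both strands and ETS word: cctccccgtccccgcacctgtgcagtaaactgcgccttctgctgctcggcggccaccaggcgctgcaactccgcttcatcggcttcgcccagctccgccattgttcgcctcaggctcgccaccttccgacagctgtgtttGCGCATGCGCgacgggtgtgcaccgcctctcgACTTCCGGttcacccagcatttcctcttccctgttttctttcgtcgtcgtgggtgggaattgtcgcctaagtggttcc
UQCRH, chr1:46303448-46303697, plus strand, ETS word: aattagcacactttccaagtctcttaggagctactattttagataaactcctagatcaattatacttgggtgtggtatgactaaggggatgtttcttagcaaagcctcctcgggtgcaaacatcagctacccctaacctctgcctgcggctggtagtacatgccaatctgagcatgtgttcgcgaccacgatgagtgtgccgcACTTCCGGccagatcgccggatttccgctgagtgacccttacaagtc
COX5B, chr2:97645812-97646061, plus strand, NRF1 and ETS words: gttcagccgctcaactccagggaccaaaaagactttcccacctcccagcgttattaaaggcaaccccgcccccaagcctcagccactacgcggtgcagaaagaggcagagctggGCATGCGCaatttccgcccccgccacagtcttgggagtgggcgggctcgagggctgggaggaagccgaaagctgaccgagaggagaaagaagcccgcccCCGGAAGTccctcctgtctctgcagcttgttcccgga
ATP5PF, chr21:25735055-25735304, minus strand, NRF1 and YY1 words: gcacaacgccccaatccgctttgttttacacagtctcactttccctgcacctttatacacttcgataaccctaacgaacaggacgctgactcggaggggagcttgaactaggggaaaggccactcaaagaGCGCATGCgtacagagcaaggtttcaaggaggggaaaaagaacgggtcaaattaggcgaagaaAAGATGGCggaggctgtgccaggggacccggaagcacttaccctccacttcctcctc

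Transcripts of the subunits were present for all 5 complexes, and no subunit gene passed the test of overexpression against control. Of the 90 members, 82 passed the filter on low counts and were tested. None was called higher and none lower at an adjusted p under 0.05 by edgeR's quasi-likelihood test, where 0.0256% of all 15631 genes tested were called higher and 0.102% lower. With the replicate number as a block, 0 members were again called, against 0.0256% higher and 0.441% lower among all genes. DESeq2 and limma-voom also called 0 members, against 1.62% and 0.154% of these genes in either direction. At an unadjusted p under 0.05, edgeR listed 0 members (6.49% of all genes) and, with the block, 3 members (9.29% of all genes), which were NDUFA9, NDUFB11 and COX6B1, all fitted lower. The lowest adjusted p of a member was 0.746 by edgeR, and 0.530 with the block. These are measurements on bulk RNA, in which fewer cells of a kind and less RNA per cell cannot be told apart.

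The fitted direction rested on a single library. Of the 82 members, 68 were fitted lower and 14 higher in overexpression, with a median log2 fold change of -0.28, where 49.3% of all genes were fitted lower with a median of 0.01. Control 2 held the highest CPM of the 6 libraries for 69 of the 82 members (25.8% of all genes) and the lowest for 3, ATP5F1A, NDUFS1 and UQCRB (26.7% of all genes). Its level was a median of 1.80 times the mean of controls 1 and 3. Without control 2, 29 members were fitted lower and 53 higher, the median log2 fold change was 0.084, and 0 were called, with 1 (ATP5MG) at an unadjusted p under 0.05. The lower median of the overexpression group was thus not present in the other 5 libraries.

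Summed over the 90 members, the level was 4861, 5386 and 5235 CPM in overexpression 1, 2 and 3, and 4851, 8015 and 4967 CPM in control 1, 2 and 3. The overexpression libraries and controls 1 and 3 lay close together, and control 2 stood apart above them. The median difference within a replicate number, overexpression minus control in log2 CPM, was 0.01 for number 1 (39 members lower, 43 higher), -0.69 for number 2 (74 lower, 8 higher) and 0.08 for number 3 (26 lower, 56 higher). The deviation of a library, here and below, is a gene's log2 CPM in it minus the gene's mean over the other libraries. Overexpression 1 was the lowest of its group, with a median deviation of -0.28, against -0.06 and -0.05 in overexpression 2 and 3.

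Complex I accepts electrons from NADH at a flavin and passes them along iron-sulfur clusters to ubiquinone. Its 39 tested members had a median log2 fold change of -0.28, with 32 fitted lower and 7 higher, and control 2 was highest for 33. Without control 2 the median was 0.03. Among the 7 core subunits encoded in the nucleus, 6 were fitted lower (median -0.26, and -0.01 without control 2). NDUFV1, which carries the flavin and the NADH site, stood at 66.5, 65.5 and 78.9 CPM in overexpression 1, 2 and 3 and at 66.4, 75.9 and 72.5 CPM in control 1, 2 and 3, with wide overlap.

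NDUFS1, the largest nuclear subunit of complex I and a carrier of iron-sulfur clusters (chromosome 2, 206114817 to 206159603, minus strand), was the core subunit that went the other way. It stood at 125, 126 and 117 CPM in overexpression 1, 2 and 3 and at 98.9, 98.0 and 103 CPM in control 1, 2 and 3. All overexpression libraries lay above all controls, and control 2 was not apart from controls 1 and 3. The log2 fold change was 0.29 (standard error 0.16), and 0.28 without control 2, and edgeR gave an adjusted p of 0.746. NDUFV3, a small accessory subunit of the NADH module, also had groups that did not overlap, with 41.8, 42.9 and 35.8 CPM in overexpression and 33.7, 34.8 and 33.9 CPM in control libraries (log2 fold change 0.23, standard error 0.18, edgeR adjusted p = 0.751). Together they were the 2 of 82 members whose groups lay apart with overexpression higher, where 6.04% of all genes did so.

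The 30 accessory subunits of complex I, which surround the core and are needed for its assembly and stability, had 24 fitted lower and 6 higher. NDUFB11, a membrane-arm subunit on chromosome X, had the lowest value of them, with 28.9, 48.6 and 53.3 CPM in overexpression and 51.4, 111 and 55.3 CPM in control libraries. Overexpression 1 was low and control 2 high, while the remaining 4 libraries lay between 48.6 and 55.3 CPM. Its log2 fold change of -0.73 (standard error 0.36, edgeR adjusted p = 0.746) was -0.29 without control 2. NDUFA3, another membrane-arm subunit, stood at 15.8, 16.9 and 19.4 CPM in overexpression and 20.9, 27.3 and 21.4 CPM in control libraries, so that its groups did not overlap (log2 fold change -0.42, standard error 0.22, edgeR adjusted p = 0.746; -0.28 without control 2). At the other end was NDUFA5, a subunit of the arm that faces the matrix, with 32.4, 47.6 and 32.4 CPM in overexpression and 26.9, 29.9 and 32.9 CPM in control libraries, which overlapped (log2 fold change 0.32). NDUFA4 stood at 37.7, 63.4 and 63.6 CPM in overexpression and 53.4, 133 and 60.8 CPM in control libraries, with control 2 far above the rest. Its paralogue NDUFA4L2, known as a gene induced by hypoxia, had 26 counts over all 6 libraries and was not tested.

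Complex II oxidises succinate in the citric acid cycle and is the complex with no mitochondrially encoded subunit. Its 4 members had a median log2 fold change of -0.06, which was 0.22 without control 2 and 0.02 without overexpression 2. SDHA, the flavin subunit, stood at 132, 135 and 169 CPM in overexpression and 150, 147 and 157 CPM in control libraries, and control 2 did not stand out. SDHB, the iron-sulfur subunit, stood at 64.1, 96.8 and 68.2 CPM in overexpression and 67.0, 138 and 73.7 CPM in control libraries, with control 2 highest. The membrane anchors were SDHC, at 102, 101 and 97.2 CPM in overexpression and 95.5, 110 and 63.2 CPM in control libraries, and SDHD. SDHD stood at 25.9, 17.8 and 21.3 CPM in overexpression and 14.3, 34.4 and 19.2 CPM in control libraries. Log2 fold changes were -0.28 for SDHB, -0.06 for SDHD, -0.05 for SDHA and 0.16 for SDHC, and the groups overlapped for each. Subunits of this 1 complex thus did not share the control 2 pattern in equal measure: the log2 deviation of control 2 was 0.91 for SDHB and 0.83 for SDHD, 0.28 for SDHC and -0.01 for SDHA.

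Complex III carries electrons from ubiquinol to cytochrome c. Its 9 members had a median log2 fold change of -0.32, with 7 fitted lower, and 0.11 without control 2. The 6 small subunits had a median of -0.40 and the 3 larger ones -0.09, but without control 2 these were 0.09 and 0.11. UQCRFS1, the Rieske iron-sulfur protein, stood at 162, 193 and 195 CPM in overexpression and 191, 305 and 192 CPM in control libraries, with control 2 alone above the rest. UQCRC2, a large core protein, stood at 181, 197 and 186 CPM in overexpression and 168, 204 and 169 CPM in control libraries, which overlapped (log2 fold change 0.06). UQCR10, a small membrane subunit, stood at 27.5, 38.6 and 44.1 CPM in overexpression and 43.0, 89.1 and 44.1 CPM in control libraries (log2 fold change -0.68, standard error 0.34, edgeR adjusted p = 0.746; -0.25 without control 2). UQCR11, another small membrane subunit, followed with -0.59. UQCRB, a subunit near the ubiquinone site, was 1 of the 3 members with control 2 lowest, at 173, 115 and 130 CPM in overexpression and 129, 110 and 123 CPM in control libraries (log2 fold change 0.21).

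UQCRH, the hinge subunit that helps cytochrome c dock, has a near-identical intronless copy, UQCRHL, and reads could be shared between them. UQCRH stood at 73.1, 108 and 91.5 CPM in overexpression and 74.0, 174 and 86.6 CPM in control libraries. UQCRHL stood at 27.4, 26.9 and 26.0 CPM in overexpression and 24.2, 52.4 and 28.0 CPM in control libraries, so that control 2 was the highest library for both rows. The ratio of UQCRHL to UQCRH counts was 0.250 to 0.374 over the libraries, and neither row can be read as the level of 1 gene.

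Complex IV passes electrons to oxygen through metal centres that lie in its mitochondrially encoded subunits, and its nuclear subunits surround and regulate them. All 11 general subunits passed the filter, with a median log2 fold change of -0.37, 10 fitted lower and 1 higher, and control 2 was the highest library for all 11. Without control 2 the median was 0.05. COX4I1, the largest nuclear subunit, stood at 71.3, 102 and 77.6 CPM in overexpression and 77.5, 112 and 101 CPM in control libraries. COX5A, a matrix-side subunit, stood at 88.2, 79.0 and 81.0 CPM in overexpression and 77.4, 107 and 82.5 CPM in control libraries. Both overlapped between groups, with log2 fold changes of -0.22 and -0.10.

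COX6A1, a small membrane subunit, had the lowest log2 fold change of any member apart from a read-through row. It stood at 38.9, 58.1 and 63.8 CPM in overexpression 1, 2 and 3 and at 68.8, 142 and 60.4 CPM in control 1, 2 and 3. The log2 fold change was -0.75 (standard error 0.36, edgeR adjusted p = 0.746), and -0.27 without control 2. COX6B1, the subunit that faces the intermembrane space, stood at 93.7, 112 and 104 CPM in overexpression and 119, 231 and 121 CPM in control libraries. Its groups did not overlap with control 2 in or out, and its log2 fold change was -0.61 (standard error 0.29, edgeR adjusted p = 0.746), or -0.22 without control 2. COX6B1 and NDUFA3 were the 2 of 82 members whose groups lay apart with overexpression lower, where 7.52% of all genes did so. COX5B, a zinc-binding subunit, stood at 35.1, 61.6 and 70.3 CPM in overexpression and 60.7, 149 and 60.3 CPM in control libraries. Leaving out control 2 took its log2 fold change from -0.69 to -0.12.

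The tissue and germline isoforms of complex IV subunits had few or no counts. COX4I2, COX6A2, COX7A1 and COX7B2 had 0 counts in every library, which at 3 counts allows up to 0.175 to 0.218 CPM per library for counting error alone. COX8C had 2 counts and COX6B2 35 counts over all 6 libraries, and none of the 6 isoform genes passed the filter. Their general counterparts were all expressed. COX7A2 stood at 43.9, 48.5 and 37.7 CPM in overexpression and 34.6, 99.0 and 34.9 CPM in control libraries. COX7A2L, a paralogue known for joining complexes III and IV into supercomplexes, stood at 77.0, 82.2 and 44.0 CPM in overexpression and 48.4, 94.7 and 43.7 CPM in control libraries, and was the 1 general subunit fitted higher (log2 fold change 0.12). For COX7B the values were 75.7, 121 and 76.8 CPM in overexpression and 70.8, 127 and 80.1 CPM in control libraries. In that gene overexpression 2 was raised beside control 2. COX8A, at 70.0, 97.8 and 97.0 CPM in overexpression and 92.8, 174 and 100 CPM in control libraries, had the common pattern of control 2 alone above the rest.

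ATP synthase joins a catalytic F1 head to a membrane rotor. Its 19 tested members had a median log2 fold change of -0.22, with 16 fitted lower and 3 higher, and 0.12 without control 2. The catalytic subunit ATP5F1B stood at 317, 275 and 298 CPM in overexpression and 311, 443 and 259 CPM in control libraries. Its partner ATP5F1A stood at 199, 211 and 227 CPM in overexpression and 207, 180 and 213 CPM in control libraries, so that control 2 was the highest library for the first and the lowest for the second. ATP5F1E, the small epsilon subunit, stood at 69.8, 97.5 and 77.1 CPM in overexpression and 68.8, 168 and 80.1 CPM in control libraries, and had the lowest fitted value of the F1 subunits (log2 fold change -0.38).

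The rotor ring is built of 1 protein, subunit c, which is encoded by ATP5MC1, ATP5MC2 and ATP5MC3 with different import sequences. Their log2 fold changes were -0.32, -0.28 and -0.18. The mix varied between libraries in both groups. Of the summed CPM of these genes, ATP5MC1 made up 11.8% to 15.5%, ATP5MC2 40.7% to 53.2% and ATP5MC3 35.0% to 44.0%, and the shares of control 2 (15.5%, 46.6% and 37.9%) included the highest of ATP5MC1, next to 15.4% in overexpression 3. The sum was 179, 196 and 194 CPM in overexpression and 183, 309 and 183 CPM in control libraries. CPM is not per length, so these shares serve only to compare libraries.

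The 4 peripheral stalk genes, whose products hold the head still, were all fitted lower, between -0.02 and -0.23, and all fitted higher without control 2, with a median of 0.20. ATP5MG, a small membrane subunit, had the highest log2 fold change of all members. It stood at 99.3, 87.7 and 75.4 CPM in overexpression and 67.4, 89.9 and 42.1 CPM in control libraries. The groups overlapped through control 2, and the log2 fold change was 0.40 (standard error 0.29, edgeR adjusted p = 0.749), or 0.67 without control 2 (edgeR adjusted p = 0.879). ATP5ME, another small membrane subunit, had the lowest log2 fold change of the ATP synthase members, at -0.58, or -0.05 without control 2. It stood at 14.5, 18.7 and 20.9 CPM in overexpression and 20.0, 43.5 and 17.4 CPM in control libraries. ATP5IF1, the inhibitor that stops ATP synthase from running backwards, stood at 32.8, 35.7 and 54.4 CPM in overexpression and 35.4, 56.1 and 39.0 CPM in control libraries, with 1 raised library in each group (log2 fold change -0.09). ATP5MGL, a copy of ATP5MG, had 6 counts in all.

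**Figure D1:**
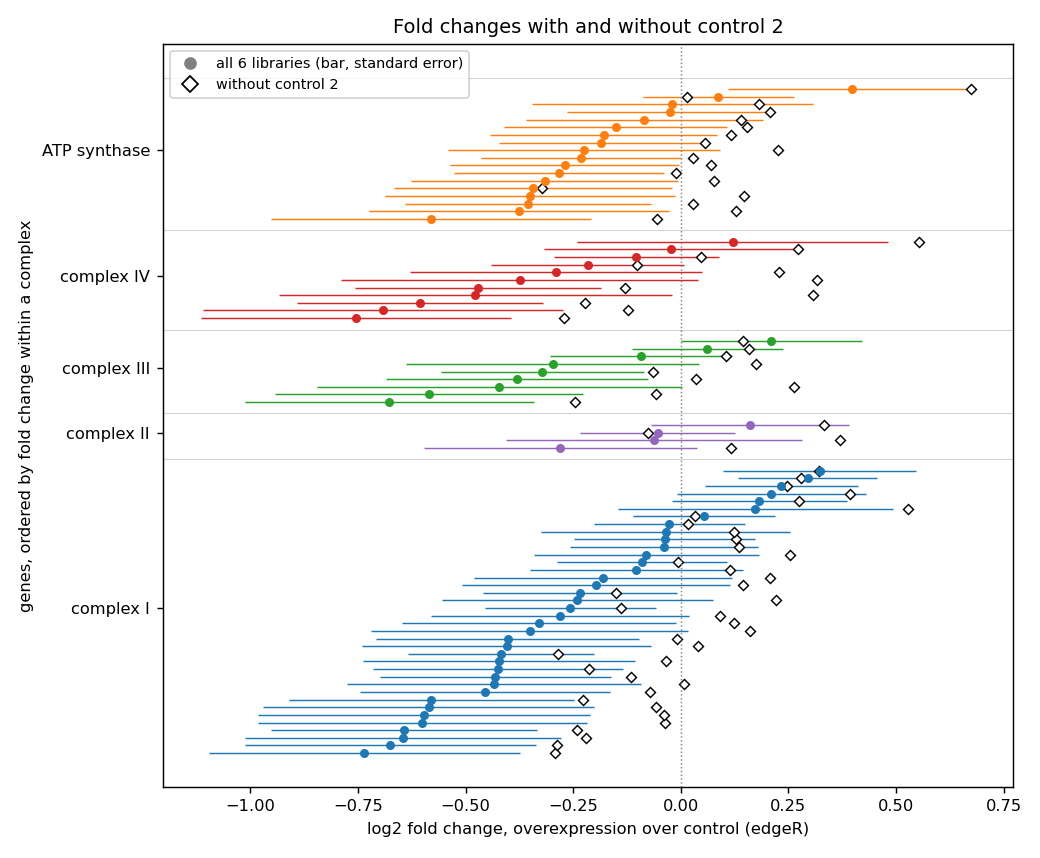
Log2 fold change of overexpression over control for the 80 tested subunit genes that are not read-through rows, ordered within each complex; filled circles use all 6 libraries with the standard error as a bar, and open diamonds leave out control 2. Most diamonds lie to the right of their circle, and the median over all 82 tested members moves from -0.28 to 0.084.

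The read-through rows behaved unlike the rest. NDUFC2-KCTD14, a transcript that runs from NDUFC2 into the next gene, had 32, 103 and 95 counts in overexpression 1, 2 and 3 and 20, 651 and 0 counts in control 1, 2 and 3. Its log2 fold change of -1.56 had a standard error of 1.53, and its reads overlap those of NDUFC2, so the row is uncertain. NDUFC2 itself stood at 47.6, 50.1 and 72.3 CPM in overexpression and 57.2, 74.4 and 68.5 CPM in control libraries. ATP5MF-PTCD1 lay between 1.34 and 2.79 CPM in all libraries.

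The level in control 2 was graded by the length of the coding sequence. Members with up to 300 coding bases had a median log2 deviation of 1.06 in control 2 and it was the highest library for 21 of 21. The median was 0.83 for the 32 members above 300 and up to 500 bases, 0.63 for the 18 up to 1000 bases and 0.18 for the 9 up to 2000 bases. The remaining 2, NDUFS1 and the ATP5MF-PTCD1 read-through, stood at -0.21. All 12779 coding genes tested showed the same order, with medians of 0.55, 0.50, 0.30, 0.06 and -0.26, and the members' medians were above these in every class. Across genes, Spearman's rank correlation between coding length and the control 2 deviation was -0.50 over the 82 members and -0.42 over the 12779 genes. These genes share the same 6 libraries and are not independent replicates. The rank correlation between GC content and that deviation was 0.05 over the members and 0.48 over 12772 coding genes. Over these coding genes it was -0.55, -0.35 and 0.16 for overexpression 1, 2 and 3, and 0.07 and 0.19 for control 1 and 3. With the log2 fold change, GC content correlated at -0.53 over these genes and -0.29 over the members. Whether RNA quality or library preparation played a part in control 2 was not tested.

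Members with and without 1 of the 3 promoter words shared the pattern. Control 2 was highest for 26 of the 31 tested members whose window held a word and for 32 of the 37 whose window held none, with median deviations of 0.83 and 0.92. Median log2 fold changes were -0.27 and -0.35. Of the printed promoters, that of COX5B belongs to a member far up in control 2 (deviation 1.40) and that of NDUFS1 to a member low there (-0.21).

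Subunits encoded in mitochondrial DNA went the other way in control 2. The 13 genes of complexes I, III, IV and ATP synthase on that genome summed to 39229, 26773 and 49134 CPM in overexpression 1, 2 and 3 and to 38482, 17082 and 46653 CPM in control 1, 2 and 3. Control 2 was the lowest library for 12 of the 13, MT-ND3 being the exception, and overexpression 2 held the next lowest sum. MT-CO1, the catalytic subunit of complex IV, stood at 11779, 9278 and 15478 CPM in overexpression and 12030, 5087 and 14605 CPM in control libraries. The ratio of the mitochondrial to the nuclear sum was 8.07, 4.97 and 9.39 in overexpression and 7.93, 2.13 and 9.39 in control libraries. By edgeR 0 of the 13 were called, with 0 at an unadjusted p under 0.05, and DESeq2 and limma-voom called 0. Their median log2 fold change was 0.14 and, without control 2, -0.13, in a fit that keeps overexpression 2 with its next lowest sum. Within replicate numbers 1, 2 and 3 the median differences in log2 CPM were -0.01, 0.65 and 0.08.

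**Figure D2:**
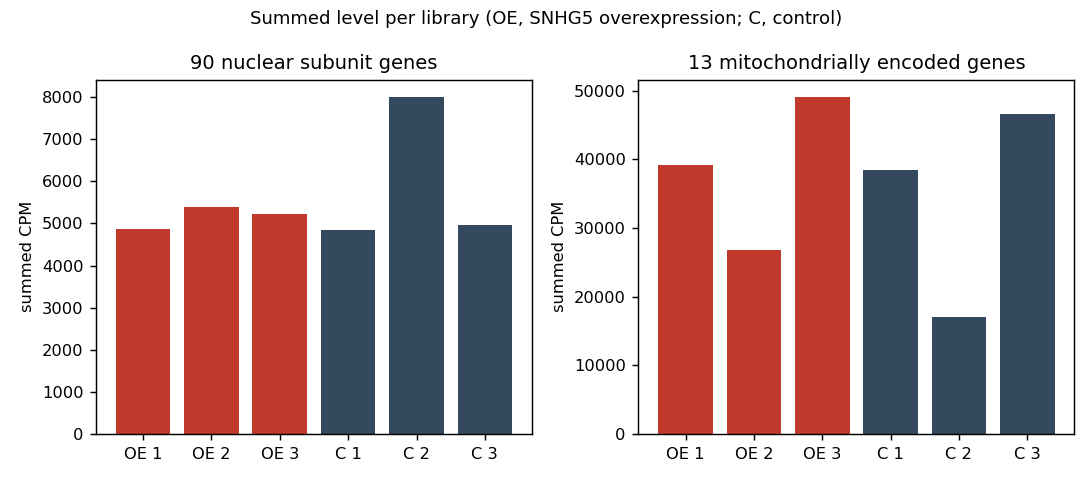
Bars give the summed CPM of the 90 nuclear members (left) and of the 13 mitochondrially encoded genes (right) in each library; OE is overexpression and C control. Control 2 has the highest nuclear sum, 8015 CPM, and the lowest mitochondrial sum, 17082 CPM.

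Factors that build the complexes were described in 5 lists. Median log2 fold changes were -0.001 over 19 assembly factors of complex I, 0.08 over 4 of complex II, -0.16 over 8 of complex III, -0.08 over 27 rows of complex IV and 0.01 over 5 of ATP synthase. The deviation of control 2 had medians of 0.18, 0.50, 0.51, 0.45 and 0.41 in these lists, against 0.80 over the members. Without control 2 the median log2 fold changes were 0.11, 0.25, 0.12, 0.10 and 0.12. No row of these lists was called by edgeR, with LYRM7 and 1 of 2 SCO2 rows at an unadjusted p under 0.05 (6.49% of all genes). DESeq2 called these same rows (1.62% of all genes) and limma-voom called 0 (0.154% of all genes).

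LYRM7, a chaperone that keeps the Rieske protein UQCRFS1 ready for insertion into complex III, stood at 27.6, 23.7 and 26.1 CPM in overexpression and 8.06, 7.41 and 13.3 CPM in control libraries. All overexpression libraries lay above all controls, where 6.04% of all genes did so, and control 2 was not apart. The log2 fold change was 1.43 (standard error 0.28), with an edgeR adjusted p of 0.126, or 0.0942 with the replicate block. DESeq2 gave an adjusted p of 0.000757. Without control 2 the log2 fold change was 1.27 (edgeR adjusted p = 0.334). UQCRFS1 itself had a log2 fold change of -0.32. SCO2, a copper chaperone of complex IV, is listed on 2 rows. The row called by DESeq2 stood at 3.40, 2.55 and 2.50 CPM in overexpression and 7.00, 11.1 and 6.65 CPM in control libraries. Its log2 fold change was -1.55 (standard error 0.32, edgeR adjusted p = 0.148, DESeq2 adjusted p = 0.00343), or -1.28 without control 2 (edgeR adjusted p = 0.334). The other stood at 4.61, 11.0 and 15.0 CPM in overexpression and 13.5, 26.4 and 15.5 CPM in control libraries (log2 fold change -0.86), and how reads were split between the rows is not given in the sources used here. Both genes were chosen after their values were seen.

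Cytochrome c (CYCS) and the other electron carriers, ubiquinone synthesis enzymes and subunits outside the naming rule had 0 of 18 called by edgeR, 0 at an unadjusted p under 0.05, and a median of -0.09. CYCS stood at 156, 239 and 190 CPM in overexpression and 192, 217 and 185 CPM in control libraries. CYC1, the cytochrome of complex III, stood at 104, 154 and 138 CPM in overexpression and 145, 234 and 153 CPM in control libraries, like many members highest in control 2. Among regulators of mitochondrial gene expression, 22 of 23 were tested, edgeR called 0, with 1 (GABPB2) at an unadjusted p under 0.05, and the median was 0.03. NRF1 stood at 20.6, 20.7 and 20.3 CPM in overexpression and 25.2, 24.8 and 21.1 CPM in control libraries (log2 fold change -0.21, edgeR adjusted p = 0.781). Its groups narrowly did not overlap. Of the 22 regulators tested, 2 had groups apart with overexpression lower, NRF1 among them, and 1 with overexpression higher. Of all genes, 7.52% and 6.04% did so. GABPA stood at 14.9, 18.9 and 19.4 CPM in overexpression and 35.6, 14.1 and 28.1 CPM in control libraries, which overlapped through control 2. Its log2 fold change was -0.55 (edgeR adjusted p = 0.748), or -0.85 without control 2 (edgeR adjusted p = 0.478). YY1 had a log2 fold change of 0.04, and its groups overlapped. TFAM, which packages and transcribes mitochondrial DNA, stood at 103, 103 and 96.5 CPM in overexpression and 97.0, 72.4 and 94.3 CPM in control libraries. MYC, known to drive mitochondrial biogenesis, stood at 7.83, 39.9 and 5.76 CPM in overexpression and 187, 7.08 and 127 CPM in control libraries. Control 2 was apart from controls 1 and 3 here too, but below them and within the overexpression range. The log2 fold change of MYC was -2.59 (standard error 1.12, edgeR adjusted p = 0.746), or -3.15 without control 2 (edgeR adjusted p = 0.478). PPARGC1A was too low to be tested.

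The ribosomal protein genes, short and highly expressed like many subunit genes, had a like pattern. The 78 mitochondrial ribosomal proteins had a median log2 fold change of -0.20 and a control 2 deviation of 0.62, and the 83 cytosolic ones tested had -0.29 and 0.77. EdgeR called 0 of each, with 3 and 5 at an unadjusted p under 0.05, where 6.49% of all genes were. DESeq2 called 0 and 1 (1.62% of all genes), and limma-voom 0 of each (0.154% of all genes). Without control 2 the medians were 0.04 and 0.05, so the sign of both medians changed when that library was left out. Within replicate numbers 1, 2 and 3 the median differences in log2 CPM were 0.05, -0.44 and -0.04 for the mitochondrial list. For the cytosolic list they were -0.06, -0.63 and -0.05, with 50, 79 and 53 of the 83 lower.

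Reads on pseudogenes limit some of the subunits. The table holds 164 pseudogene rows named after these stems, 160 of them with a member as parent, and 57 with any count. Together they held 16383 counts, 3.15% of the members' counts. COX6A1P2 held 5609 counts, 83.6% of the number on COX6A1, UQCRFS1P1 5548 counts (28.7% of UQCRFS1), SDHDP6 1237 counts (59.2% of SDHD), NDUFV2P1 916 counts (14.7% of NDUFV2) and NDUFA5P11 455 counts (14.5% of NDUFA5). With COX6A1P2 added, COX6A1 stood at 101, 120 and 111 CPM in overexpression and 118, 233 and 110 CPM in control libraries, a log2 ratio of means of -0.48. SDHA has several such rows, with 890 counts on SDHAP1, 258 on SDHAP2 and 336 on SDHAP3 (6.37%, 1.85% and 2.41% of SDHA). Values of these parents are therefore uncertain by the share of reads that the counting could have split.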

How the data were processed

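FastQC, HISAT2 and GRCh38 are named by the submitters' processing notes. Which versions, which counter and which use of strand is not given in the sources used here. Per the labels' protocols, paired-end libraries were made from total RNA with a TruSeq RNA kit. The authors deposited whole-number counts and FPKM values per gene. The deposited FPKM values served only to check that 1 gene length lay behind all libraries (100% of 14027 genes, within 0.01%). The members and lists, the rule for named genes and the alternatives were chosen with earlier results of these data known.

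Counts were tested with edgeR 4.0.16 (R 4.3.3), TMM factors, filterByExpr and the robust quasi-likelihood test over 15631 genes, with Benjamini-Hochberg adjustment at 0.05. The standard error is the log2 fold change divided by the square root of the F statistic. CPM uses TMM-scaled totals, and log2 CPM a prior count of 2. The floor of a gene not seen is 3 counts and covers counting error only. Coding lengths, GC content and pseudogene names come from GENCODE 29 and the deposited table, and coordinates are the table's. Named genes were core subunits, isoform sets, complex II, ATP5IF1, the 2 highest and 2 lowest fold changes of the other complexes, and members whose groups did not overlap; others were chosen after their values were seen. Of the genes this rule takes, 1 has no values of its own in the text. Promoters were matched to RefSeq by symbol. Replicates differed by a chi-square of 23.9 to 85.7 per degree of freedom over all genes, and each was counted as 1. It was 23.9 between overexpression 1 and 2, and overexpression 3 differed from these by 85.5 and 77.8. Control 1 and 3 differed by 25.6, and control 2 from these by 85.2 and 85.7. P-values weigh the group difference against the spread between these libraries. Deviations of same-numbered libraries correlated at 0.35, 0.16 and 0.29 (others -0.34 to 0.12), and the labels' protocol speaks of pairs of transfected cells. The numbers were therefore taken to pair in the replicate block and in the differences within a replicate number. The main edgeR fit compared the groups without this pairing. Genes varied between replicates with a common biological coefficient of 30.8%. The fit was also run on simulated counts that held no pairing and no library standing apart. That run therefore does not show how the fit treats a library like control 2. The other settings were a replicate block, each library left out, RLE and upper quartile factors, no filter, a mean CPM of at least 5, DESeq2 1.42.0, limma-voom (limma 3.58.1) and, added after seeing the data, leaving out replicate pair 2.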

Additional observations from a re-analysis of the deposited data

How the results depend on the processing

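No member was called under any of the 14 alternatives, and of the 545 values of the 39 named members tested all stayed on the same side of the threshold; 42 changed sign, 26 of them where control 2 was left out. The median log2 fold change of all members ran from -0.43 to 0.084 over the fits that leave out 1 library, that of complex II from -0.19 to 0.22, of complex III from -0.52 to 0.11 and of ATP synthase from -0.35 to 0.12, with the highest value in each case without control 2. Over all genes, 4 were called higher and 16 lower. DESeq2 called 22 higher and 238 lower, the fit with no filter called 72 lower, and the replicate block called 69 lower. The fit without replicate pair 2 called 0 higher and 0 lower. Leaving out 1 library gave 0 to 20 higher and 0 to 144 lower, the most without overexpression 3. The cause of these differences was not tested. The replicate block changed no call among the members.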
